A study of Homo sapiens with 30 samples.

Results

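ADRA2C, PLD1, VWA2 and OPRK1 are 4 of the 23710 genes counted in this series. They were chosen by their fall with dihydrotestosterone (DHT) in charcoal-stripped serum, so that fall is described here without a test. All measurements come from RNA-seq of 2 prostate cancer cell lines that derive from LNCaP. V16D is castration-resistant, and MR49F is resistant to enzalutamide. Each is 1 line, so resistance and other differences between the lines cannot be told apart. In full serum, either line received vehicle or 10 µM enzalutamide for 24 h. MR49F cells were also kept in charcoal-stripped serum, which is low in androgens, for 72 h and then received vehicle, 10 µM enzalutamide, 1 nM DHT, 500 nM JQ-1, or JQ-1 together with enzalutamide or DHT at these doses, for 24 h. Each of the 10 conditions had 3 replicates, giving 12 full-serum and 18 stripped-serum libraries.

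Androgens such as DHT raise the transcription of some genes in prostate cells and lower that of others. Enzalutamide is an antiandrogen that can act like an androgen in some resistant cells, and JQ-1 displaces BET bromodomain proteins from acetylated chromatin. ADRA2C encodes an alpha-2 adrenergic receptor and OPRK1 the kappa opioid receptor, and both receptors signal through inhibitory G proteins that lower cyclic AMP. PLD1 encodes a phospholipase D, which cleaves phosphatidylcholine to phosphatidic acid and choline. VWA2 encodes a secreted matrix protein with von Willebrand factor A domains.

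Reads assigned to genes ranged from 13170504 to 21154962 per library in full serum and from 982130 to 1813262 in stripped serum. Genes took 73.0 to 77.8% of the counted reads in full serum and 5.13 to 7.66% in stripped serum, although both sets were made with a strand-specific kit. How the counting treated strand is not given in the sources used here. Among pairs of genes that share at least 300 exon bases on opposite strands, where 1 gene averaged at least 10 FPKM and over 20 times the FPKM of the other, the lower gene had more reads in 2 of 171 pairs in full serum and in 35 of 169 in stripped serum. Stripped-serum counts may hold reads of the opposite strand, so a level in counts there is uncertain, and the part of strand in the results was not tested. The 4 genes share no exon bases with another annotated gene. Count levels were compared only within a serum, and 1 test set the enzalutamide fold changes of the sera against each other. The separately deposited FPKM values (fragment counts scaled by transcript length and mapped reads) were used as a second readout, and their depth is unknown. All 9 luminal prostate markers listed were at 1 FPKM or more in every library, while all basal, leukocyte and endothelial markers listed stayed below 1 FPKM. The luminal markers moved with treatment, and in stripped serum they summed to 1007 to 1022 FPKM with JQ-1 and 3073 to 3279 with DHT. Neuroendocrine and fibroblast markers were low but moved with some treatments, and their summed values are given below. These are bulk samples, in which fewer cells of a type and less RNA per cell cannot be told apart. The first MR49F vehicle library in full serum stood apart from its replicates, with a chi-square of 11.6 per degree of freedom against the third, and the calls that rest on it are given without it as well.

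In GRCh37, PLD1 lies on the minus strand of chromosome 3 (171318194 to 171528740), ADRA2C on the plus strand of chromosome 4 (3768075 to 3770253) and VWA2 on the plus strand of chromosome 10 (115999013 to 116054248). No other annotated gene overlapped an exon of any of them. The 250 bases before the transcription start are shown for 3 of the genes because the 4 genes moved together with DHT. They come from RefSeq in build GRCh38.p14, and capitals mark AGAACA, a steroid hormone response half-site, searched on both strands. The windows are chr3:171810484-171810733 (minus strand) for PLD1, chr4:3766135-3766384 (plus strand) for ADRA2C and chr10:114239004-114239253 (plus strand) for VWA2.
PLD1: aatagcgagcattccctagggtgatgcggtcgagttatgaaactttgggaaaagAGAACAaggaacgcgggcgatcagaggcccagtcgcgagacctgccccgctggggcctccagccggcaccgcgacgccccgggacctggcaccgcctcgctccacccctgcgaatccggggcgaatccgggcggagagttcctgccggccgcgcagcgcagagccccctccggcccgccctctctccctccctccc
ADRA2C: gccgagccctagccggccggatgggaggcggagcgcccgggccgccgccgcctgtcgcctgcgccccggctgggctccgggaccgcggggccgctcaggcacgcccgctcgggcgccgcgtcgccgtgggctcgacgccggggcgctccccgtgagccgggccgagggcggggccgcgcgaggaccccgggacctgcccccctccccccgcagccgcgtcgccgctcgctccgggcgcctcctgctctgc
VWA2: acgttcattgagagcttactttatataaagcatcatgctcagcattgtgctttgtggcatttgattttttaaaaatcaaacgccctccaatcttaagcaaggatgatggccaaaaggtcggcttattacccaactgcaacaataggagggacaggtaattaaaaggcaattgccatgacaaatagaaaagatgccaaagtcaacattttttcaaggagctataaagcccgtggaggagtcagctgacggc
The PLD1 window held 1 half-site and the other 2 windows held none. A half-site was present in 12.4% of 35116 RefSeq windows of this length. The windows also differed in base composition, with 69.2% G or C for PLD1, 84.8% for ADRA2C and 40.8% for VWA2, against a median of 58.0% over all windows. A second VWA2 start is listed, whose window (not shown) held no half-site and 73.6% G or C. These matches describe the letters only.

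DHT left little of any of the 4 transcripts in stripped serum. These are the values that chose the genes. PLD1 was at 6.66, 7.68 and 8.10 FPKM in the 3 vehicle libraries and at 0.243, 0.258 and 0.285 FPKM with DHT. VWA2 was at 4.11, 4.44 and 4.01 FPKM with vehicle and at 0.199, 0.201 and 0.121 FPKM with DHT. The DHT libraries lay far below the vehicle libraries for both genes, with no overlap. OPRK1, on the minus strand of chromosome 8 (54138284 to 54164197, GRCh37) with no exon shared with another annotated gene, was at 11.96, 12.06 and 11.25 FPKM with vehicle and at 0.730, 0.742 and 0.884 FPKM with DHT. ADRA2C was at 3.66, 3.41 and 3.86 FPKM with vehicle and at 0.323, 0.302 and 0.364 FPKM with DHT. As a percent of the vehicle mean, the FPKM level left with DHT was 3.50 ± 0.287 for PLD1, 4.15 ± 1.09 for VWA2, 6.68 ± 0.728 for OPRK1 and 9.04 ± 0.864 for ADRA2C (SD, n = 3 in each). The summed FPKM of the 4 fibroblast markers listed was 2.43 to 2.59 with vehicle and 0.879 to 0.903 with DHT, and that of the 4 neuroendocrine markers 2.30 to 2.83 and 1.55 to 2.06. Their part in the falls was not tested.

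The counts gave the same direction with few reads, and all 4 genes passed the filter on low counts through the vehicle group, where they were high. ADRA2C fell from 17, 18 and 15 reads with vehicle to 0 in each DHT library, which is at least 15.2-fold lower when 3 counts over the group are taken as the floor. This bound covers counting error only, and the fall of ADRA2C in mean FPKM was smaller, at 11.06-fold. PLD1 had 82, 67 and 57 reads with vehicle and 2, 0 and 0 with DHT, or 1.06% of the vehicle level (95% exact interval 0.128 to 3.89, counting error only). VWA2 had 44, 38 and 18 reads with vehicle and 0, 0 and 1 with DHT. OPRK1 had 72, 48 and 51 reads with vehicle and 1, 6 and 3 with DHT, or 6.40% of the vehicle level (3.01 to 12.05). On edgeR's fitted fold change, ADRA2C, PLD1, VWA2 and OPRK1 ranked 1, 3, 4 and 19 from the lowest of 11004 genes. The place of ADRA2C rests on a fitted value for a group at 0 reads, and in FPKM it had the smallest fall of the 4. In this comparison 37.5% of genes passed the threshold used throughout, an adjusted p of 0.05. OPRK1, with the smallest fitted fall of the 4, was at a log2 fold change of -3.93, and the fitted values of genes outside the group included -6.80 for AMIGO2 and -5.36 for HEPN1.

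**Figure D1:**
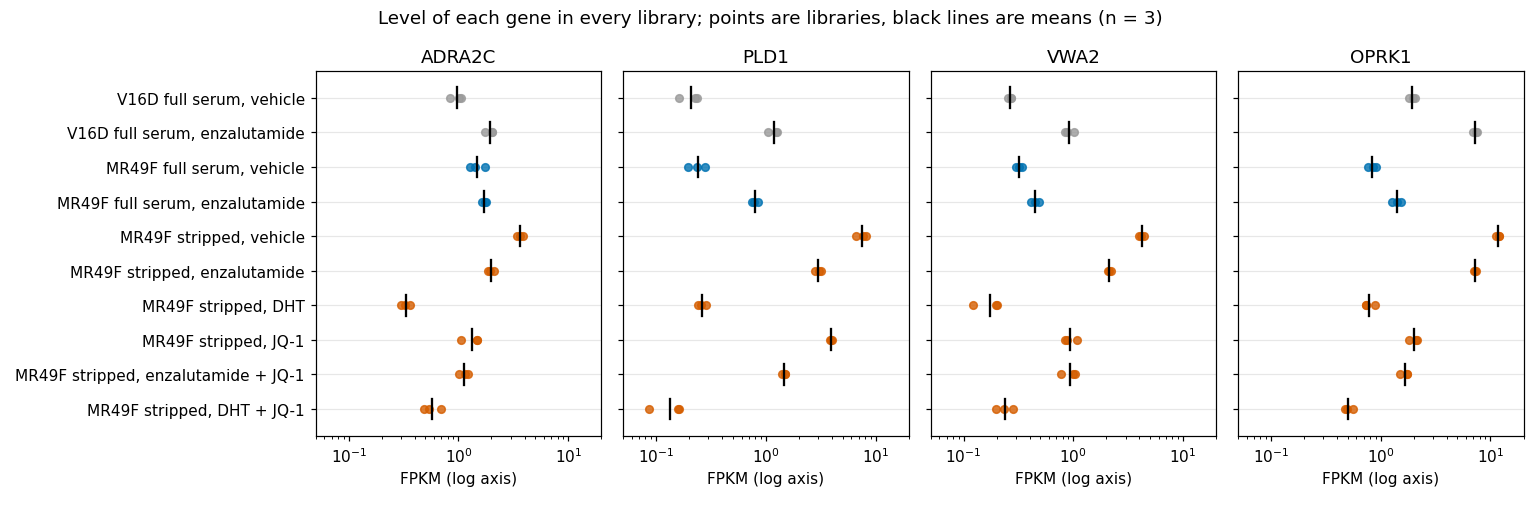
FPKM (log axis) of ADRA2C, PLD1, VWA2 and OPRK1 in all 30 libraries, with points for libraries and black lines for means of 3. In MR49F cells in stripped serum the 3 vehicle libraries are the highest of any condition for each gene, and the DHT libraries lie near or below the full-serum vehicle level.

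Set side by side, the FPKM levels of MR49F cells with vehicle were 31.4-fold higher in stripped than in full serum for PLD1, 14.1-fold for OPRK1, 13.05-fold for VWA2 and 2.46-fold for ADRA2C. The mean with DHT in stripped serum was 110% of the full-serum vehicle mean for PLD1, 93.9% for OPRK1, 54.2% for VWA2 and 22.2% for ADRA2C. The libraries of these latter 2 conditions overlapped for PLD1 and OPRK1 and not for VWA2 and ADRA2C. The sera were separate experiments with different counting yields, so serum and experiment cannot be told apart.

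Enzalutamide lowered 3 of the 4 genes in MR49F cells in stripped serum, going the way of DHT but less far. This comparison shares its vehicle libraries with the one that chose the genes. PLD1 had 35, 22 and 15 reads with enzalutamide, and its log2 fold change was -1.51 (SE 0.187, adjusted p = 2.74e-05, edgeR). VWA2 had 18, 14 and 9 reads, with a log2 fold change of -1.27 (SE 0.278, adjusted p = 0.0072). OPRK1 had 47, 38 and 27 reads, with a log2 fold change of -0.60 (SE 0.173, adjusted p = 0.0407). ADRA2C had 12, 5 and 9 reads, and its log2 fold change of -0.93 (SE 0.357) missed the threshold (adjusted p = 0.138). In CPM, read counts scaled by library size, the enzalutamide libraries lay below the vehicle libraries with no overlap for each of the 4 genes. How many of all genes lacked overlap in this way is not given here. Of all 11131 genes tested, 7.26% passed by edgeR. Only the PLD1 call held with each library left out in turn. VWA2 missed the threshold without vehicle replicate 1 (adjusted p = 0.0655) or 2 (adjusted p = 0.0522). OPRK1 passed in 1 of the 6 such fits, the one without vehicle replicate 2, and its adjusted p ranged from 0.0436 to 0.173. With DESeq2 its adjusted p was 0.262.

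On the FPKM scale the enzalutamide libraries were tighter. ADRA2C was at 1.85, 2.13 and 1.95 FPKM, PLD1 at 3.07, 2.78 and 3.15, VWA2 at 2.07, 2.21 and 2.12, and OPRK1 at 7.03, 7.22 and 7.42. All of these lay below every vehicle library. With limma on log2(FPKM + 1), ADRA2C also passed (log2 difference -0.64, SE 0.0562, adjusted p = 8.25e-05), as did the other 3 genes. Limma called a much larger share of all genes here than the 7.26% called by edgeR. The edgeR share is therefore no background for these 4 calls. Enzalutamide covered part of the distance from vehicle to DHT. The share of the FPKM difference that it covered was 62.0% ± 2.70 for PLD1, 51.2% ± 1.71 for VWA2, 50.3% ± 4.26 for ADRA2C and 41.3% ± 1.79 for OPRK1 (SD of 3 enzalutamide libraries, vehicle and DHT means held fixed). DHT libraries lay below enzalutamide libraries without overlap for all 4 genes, at 8.15% of the enzalutamide FPKM for VWA2, 8.73% for PLD1, 10.9% for OPRK1 and 16.7% for ADRA2C. This is given without a test because the DHT libraries chose the genes. Of all genes, 19.4% passed between DHT and enzalutamide.

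JQ-1 alone did not raise these genes. All 4 fell against vehicle in stripped serum, in a comparison that again shares the vehicle libraries and in which 46.6% of 11332 genes passed. OPRK1 fell furthest, to 17, 11 and 11 reads (log2 fold change -2.34, SE 0.233, adjusted p = 1.07e-11). VWA2 had 6, 10 and 10 reads (log2 fold change -2.14, SE 0.306, adjusted p = 1.08e-07) and ADRA2C 5, 7 and 8 (-1.52, SE 0.36, adjusted p = 4.87e-04). VWA2 and ADRA2C passed the filter on low counts only through the vehicle group, where they were high, so that filter favoured a fall. PLD1 had 43, 37 and 41 reads and the smallest fall (-0.98, SE 0.167, adjusted p = 3.39e-06). With JQ-1 the FPKM level left was 17.2% ± 1.60 of vehicle for OPRK1, 22.4% ± 3.06 for VWA2, 36.8% ± 6.73 for ADRA2C and 52.05% ± 0.932 for PLD1. PLD1 thus kept the highest share of its vehicle level with JQ-1 and the lowest with enzalutamide. Cell type markers moved with JQ-1. The summed FPKM of the 4 neuroendocrine markers was 11.5 to 12.5 with JQ-1 against 2.30 to 2.83 with vehicle, and both that could be tested, SYP and NCAM1, rose, while CHGA and INSM1 stayed below 1 FPKM. The 4 fibroblast markers summed to 1.43 to 1.47 FPKM with JQ-1. The 9 luminal markers summed to 1007 to 1022 FPKM with JQ-1 against 1456 to 1518 with vehicle, and 8 fell and 1 rose. Their part in the falls was not tested.

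**Figure D2:**
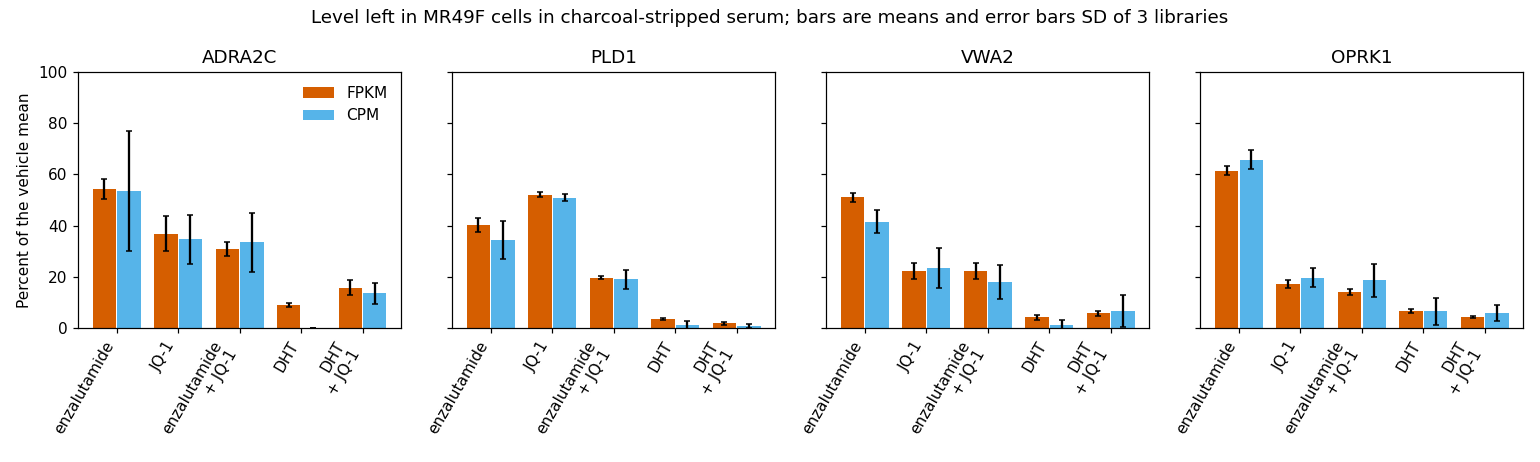
Level of each gene in MR49F cells in stripped serum as a percent of the vehicle mean, on the FPKM and the CPM scale, with bars for means and error bars for SD (n = 3). Every treatment mean lies below 100%, and PLD1 is the one gene whose mean is lower with enzalutamide than with JQ-1.

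PLD1 was also low with DHT in the presence of JQ-1. It was at 0.158, 0.160 and 0.0862 FPKM with DHT and JQ-1 against 3.83, 3.89 and 3.97 with JQ-1, and limma on log2(FPKM + 1) with no filter gave a difference of -2.11 (SE 0.0330, adjusted p = 1.20e-06). OPRK1 was at 0.494, 0.473 and 0.555 FPKM against 2.09, 2.16 and 1.81 (difference -1.0, SE 0.0517, adjusted p = 8.52e-05). In counts, PLD1 had 1, 1 and 0 reads (edgeR log2 fold change -5.53, SE 0.471, adjusted p = 6.52e-15) and OPRK1 2, 3 and 5 (-1.77, SE 0.466, adjusted p = 0.00304). These libraries are not those that chose the genes, and 22.1% of genes passed by edgeR. With DESeq2 the adjusted p of OPRK1 was 0.0515. Both genes passed the filter on low counts only through the JQ-1 group, where they were high, so that filter favoured a fall. ADRA2C had 2, 3 and 2 reads and VWA2 3, 4 and 0, and neither reached the count filter. Their FPKM values with DHT and JQ-1 were 0.695, 0.534 and 0.487 for ADRA2C and 0.284, 0.233 and 0.198 for VWA2, below every JQ-1 library. The fibroblast markers summed to 0.711 to 0.835 FPKM with DHT and JQ-1 against 1.43 to 1.47 with JQ-1, and the neuroendocrine markers to 9.12 to 9.90 against 11.5 to 12.5. Their part was not tested.

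The effect of DHT relative to its own baseline can be set side by side with and without JQ-1. With JQ-1, DHT left 3.46% ± 1.08 of the JQ-1 FPKM for PLD1, beside 3.50% of vehicle without it. For VWA2 the level left was 25.5% ± 4.63 with JQ-1 beside 4.15% without, for OPRK1 25.1% ± 2.11 beside 6.68%, and for ADRA2C 42.65% ± 8.13 beside 9.04%. The matching change in the log2(FPKM + 0.1) difference was 0.28 (SE 0.169) for PLD1, 1.95 (SE 0.119) for OPRK1, 2.03 (SE 0.194) for ADRA2C and 2.37 (SE 0.191) for VWA2. With log2(FPKM + 1) it was 0.64 (SE 0.0797) for PLD1, 1.84 (SE 0.0745) for OPRK1, 1.23 (SE 0.105) for ADRA2C and 1.5 (SE 0.0764) for VWA2, so these values depend on the pseudocount. They are described without a test because the DHT and vehicle libraries are those that chose the genes. Over all genes 12.3% passed for this interaction.

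JQ-1 did not bring the levels with DHT back to those of vehicle. DHT with JQ-1 left 15.7% ± 2.99 of the vehicle FPKM for ADRA2C, 5.69% ± 1.03 for VWA2, 4.32% ± 0.363 for OPRK1 and 1.80% ± 0.563 for PLD1. Against DHT alone, none of the 4 genes reached the count filter, while 54.7% of the 10779 genes tested passed. In FPKM, DHT with JQ-1 was at 174% of DHT alone for ADRA2C and 137% for VWA2, and at 64.6% for OPRK1 and 51.4% for PLD1. The libraries of the 2 conditions overlapped for VWA2 and not for the other 3 genes. Between these conditions the neuroendocrine markers went from 1.55 to 2.06 FPKM with DHT to 9.12 to 9.90 with DHT and JQ-1, and their part was not tested.

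Enzalutamide lowered PLD1 with JQ-1 present as well. PLD1 had 8, 10 and 14 reads with both compounds (log2 fold change against JQ-1 -1.40, SE 0.271, adjusted p = 3.87e-05). With limma on log2(FPKM + 1) and no filter the difference was -0.99 (SE 0.0247, adjusted p = 7.42e-05). By edgeR 4.50% of the 10708 genes tested passed. OPRK1 had 10, 7 and 8 reads and a log2 fold change of -0.13 (SE 0.381, adjusted p = 0.926). ADRA2C had 3, 7 and 4 reads and VWA2 5, 3 and 6, and neither was tested. The FPKM left with enzalutamide was 37.8% ± 1.22 of JQ-1 for PLD1, 82.5% ± 6.92 for OPRK1, 83.7% ± 7.91 for ADRA2C and 99.3% ± 14.5 for VWA2. Without JQ-1 the corresponding values against vehicle were 40.15%, 61.45%, 54.3% and 51.0%.

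Whether JQ-1 changed the effect of enzalutamide depended on the readout. With edgeR on counts, 0 of the 4 genes passed for the interaction and 0 had an unadjusted p under 0.05, against 0.895% of all genes called. With limma on log2(FPKM + 0.1), 3 genes passed, namely VWA2 (log2 difference 0.93, SE 0.146, adjusted p = 0.00238), ADRA2C (0.63, SE 0.166, adjusted p = 0.0284) and OPRK1 (0.43, SE 0.103, adjusted p = 0.0178). PLD1 was at -0.06 (SE 0.0987, adjusted p = 0.714). The share of 0.895% is for edgeR alone. The share of all genes that limma called for this interaction is not given here, so how far these 3 calls stand out is open. The counts had few reads for these genes, with 14 in all for VWA2 under both compounds. The vehicle libraries are again those of the comparison that chose the genes.

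JQ-1 also lowered the 3 genes that could be tested in cells given enzalutamide. VWA2 and OPRK1 passed the filter on low counts only through the group with enzalutamide alone, where they were higher. That filter therefore favoured a fall. OPRK1 changed by a log2 fold change of -1.86 (SE 0.283, adjusted p = 5.90e-06), VWA2 by -1.24 (SE 0.403, adjusted p = 0.0136) and PLD1 by -0.87 (SE 0.3, adjusted p = 0.0191), and 45.1% of all genes passed. Without enzalutamide replicate 1 neither VWA2 (adjusted p = 0.0555) nor PLD1 (adjusted p = 0.136) passed. The same was seen without replicate 2 of enzalutamide with JQ-1, with adjusted p of 0.110 for VWA2 and 0.0913 for PLD1. PLD1 was also lost without replicate 1 of that group (adjusted p = 0.0577), and with DESeq2 neither passed (adjusted p = 0.105 for VWA2 and 0.117 for PLD1). The neuroendocrine markers summed to 11.1 to 12.5 FPKM with both compounds against 2.02 to 2.16 with enzalutamide, and the fibroblast markers to 1.08 to 1.47 against 2.28 to 2.68. Their part was not tested. ADRA2C did not reach the count filter. Its FPKM with both compounds was 56.8% ± 5.36 of that with enzalutamide, and the libraries did not overlap. Between DHT with JQ-1 and enzalutamide with JQ-1, PLD1 was the 1 gene of the 4 that reached the count filter, and only through the latter group, where it was high (edgeR log2 fold change -4.11, SE 0.666, adjusted p = 2.20e-07). With limma on log2(FPKM + 1) and no filter its difference was -1.12 (SE 0.0350, adjusted p = 2.43e-05). By edgeR 18.8% of all genes passed. In FPKM, DHT with JQ-1 was at 9.17% of enzalutamide with JQ-1 for PLD1, 25.65% for VWA2, 30.5% for OPRK1 and 50.9% for ADRA2C, with no overlap.

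In full serum, where androgens are present, enzalutamide raised all 4 genes in V16D and 2 of them in MR49F. In V16D cells 37.5% of the 14079 genes tested passed. PLD1 went from 0.162, 0.226 and 0.235 FPKM with vehicle to 1.25, 1.05 and 1.28 with enzalutamide (log2 fold change on counts 2.41, SE 0.147, adjusted p = 5.89e-51). OPRK1 went from 1.96, 2.05 and 1.82 FPKM to 7.44, 6.92 and 7.49 (1.92, SE 0.0628, adjusted p = 1.05e-134). VWA2 rose from 0.271, 0.270 and 0.256 FPKM to 0.883, 1.01 and 0.849 (1.67, SE 0.151, adjusted p = 2.59e-25). ADRA2C rose least, from 1.05, 1.02 and 0.838 FPKM to 2.004, 2.026 and 1.739 (0.96, SE 0.164, adjusted p = 7.02e-08). The vehicle and enzalutamide libraries did not overlap for any of them. None of these libraries chose the genes. The 4 fibroblast markers summed to 1.03 to 1.19 FPKM with vehicle and 1.38 to 1.57 with enzalutamide, and their part was not tested.

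In MR49F cells in full serum, PLD1 and OPRK1 rose, while 8.48% of the 13927 genes tested passed. PLD1 went from 0.197, 0.237 and 0.282 FPKM to 0.845, 0.776 and 0.744 (log2 fold change 1.70, SE 0.148, adjusted p = 5.67e-05), and only 2 genes had a higher fold change. OPRK1 went from 0.851, 0.760 and 0.899 FPKM to 1.39, 1.27 and 1.52 (0.74, SE 0.120, adjusted p = 0.00368). VWA2 was at 0.337, 0.323 and 0.302 FPKM with vehicle and 0.413, 0.487 and 0.444 with enzalutamide, with no overlap, but missed the threshold (0.48, SE 0.153, adjusted p = 0.0809). Without vehicle replicate 1, the library that stood apart, it passed (0.54, adjusted p = 0.0428), as it did when all full-serum groups were fitted together (adjusted p = 0.0361). ADRA2C was at 1.28, 1.43 and 1.74 FPKM with vehicle and 1.63, 1.74 and 1.76 with enzalutamide, and its libraries overlapped (0.18, SE 0.139, adjusted p = 0.454). Without vehicle replicate 1, PLD1 (1.61, adjusted p = 1.95e-11) and OPRK1 (0.78, adjusted p = 4.23e-06) still passed and ADRA2C still missed the threshold (0.12, adjusted p = 0.712). A two-group test with equal variances, like that of the study's methods, did not call OPRK1 on log2(FPKM + 1) (adjusted p = 0.0824). The fibroblast markers summed to 1.01 to 1.56 FPKM with vehicle and 2.21 to 2.54 with enzalutamide, and their part was not tested.

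**Figure D3:**
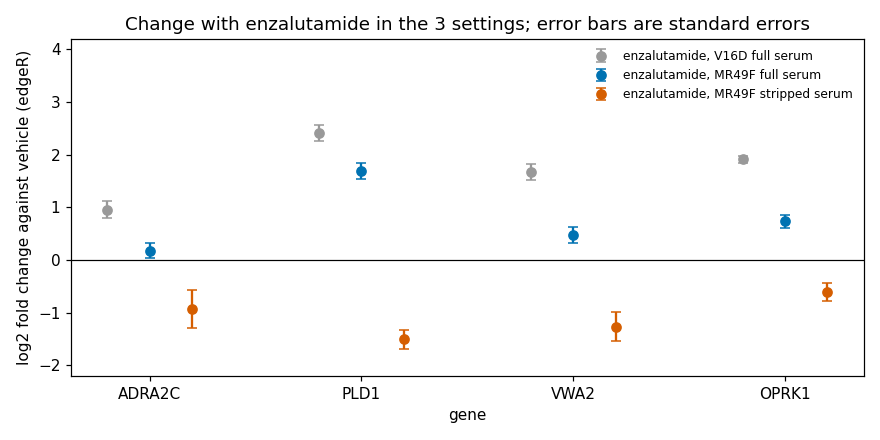
Log2 fold change with enzalutamide against vehicle for each gene in V16D in full serum, MR49F in full serum and MR49F in stripped serum, with points for edgeR estimates and error bars for standard errors. All 4 genes lie above 0 in full serum and below 0 in stripped serum, where ADRA2C missed the threshold, as ADRA2C and VWA2 did in MR49F in full serum.

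The response to enzalutamide in full serum was smaller in MR49F than in V16D for 3 genes. The difference in log2 fold change (MR49F minus V16D) was -1.20 for VWA2 (SE 0.210, adjusted p = 6.86e-04), -1.19 for OPRK1 (SE 0.139, adjusted p = 5.91e-06) and -0.79 for ADRA2C (SE 0.202, adjusted p = 0.0196). For PLD1 it was -0.73 (SE 0.243, adjusted p = 0.0860). Of all genes 6.95% passed. ADRA2C missed the threshold without V16D enzalutamide replicate 1 (adjusted p = 0.0516) or 2 (adjusted p = 0.0504) or V16D vehicle replicate 3 (adjusted p = 0.0721), and with DESeq2 (adjusted p = 0.0605). PLD1 passed without MR49F vehicle replicate 1 (adjusted p = 0.0333) or V16D enzalutamide replicate 2 (adjusted p = 0.0404), and with limma on log2(FPKM + 1) (adjusted p = 0.0179). Without MR49F vehicle replicate 1, VWA2 (-1.13), OPRK1 (-1.14) and ADRA2C (-0.84, adjusted p = 0.00788) also passed.

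The enzalutamide effect also differed between the sera in MR49F cells. The difference (full minus stripped) was 3.16 for PLD1 (SE 0.243, adjusted p = 2.82e-09), 1.71 for VWA2 (SE 0.321, adjusted p = 7.78e-04) and 1.29 for OPRK1 (SE 0.213, adjusted p = 1.98e-04), beside 11.4% of all genes called. For ADRA2C it was 1.07 (SE 0.374, adjusted p = 0.0687), and it passed without full-serum vehicle replicate 3 (adjusted p = 0.0399) or stripped-serum enzalutamide replicate 3 (adjusted p = 0.0448), and with limma on log2(FPKM + 1) (adjusted p = 1.43e-04). Without full-serum vehicle replicate 1, PLD1 (3.11), VWA2 (1.82) and OPRK1 (1.38) passed and ADRA2C did not (1.04, adjusted p = 0.0753). The stripped-serum vehicle libraries are those of the comparison that chose the genes, and serum and experiment cannot be told apart.

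With vehicle in full serum, OPRK1 was lower in MR49F than in V16D (log2 fold change -1.29, SE 0.110, adjusted p = 1.01e-06), and ADRA2C was higher (0.60, SE 0.172, adjusted p = 0.00872). PLD1 (0.08, SE 0.211, adjusted p = 0.761) and VWA2 (0.17, SE 0.170, adjusted p = 0.439) missed the threshold. In this comparison 63.7% of the 14013 genes tested passed. Without MR49F replicate 1, OPRK1 (-1.33) and ADRA2C (0.67, adjusted p = 0.00181) passed and the other 2 genes did not. With the two-group test ADRA2C missed the threshold (adjusted p = 0.0568) and VWA2 passed (adjusted p = 0.0267).

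Over the 18 stripped-serum libraries, which share their treatments, the log2 CPM values of the 4 genes had Pearson correlations of 0.827 to 0.910 with each other. The corresponding range over the 12 full-serum libraries was 0.324 to 0.893. Of 11812 genes in stripped serum, those most like each member were SERPINI1 for ADRA2C (r = 0.946), AIDA for PLD1 (r = 0.974), LRRN1 for VWA2 (r = 0.947) and SORL1 for OPRK1 (r = 0.951). The next were ALCAM and HOXC-AS5 for ADRA2C, LRRN1 and LMO4 for PLD1, MYNN and DAB2IP for VWA2, and SLC44A1 and TIMP2 for OPRK1. These are descriptions over libraries that differ mainly by treatment. The 18 include the vehicle and DHT libraries that chose the genes, so high correlations among the 4 genes were favoured.

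The receptor relatives of ADRA2C and OPRK1 were sparse. Of 8 other adrenergic receptors listed, ADRA2A, another inhibitory alpha-2 receptor, could be followed in most comparisons. In stripped serum 0 of 2 tested passed with enzalutamide, beside 7.26% of all genes. With JQ-1 against vehicle 1 of 2 fell and 0 rose, beside 46.6%. In full serum with enzalutamide 1 of 4 rose and 2 fell in V16D, beside 37.5%. In MR49F 1 of 5 rose and 0 fell, beside 8.48%. ADRA2A had a log2 fold change of -3.48 (SE 0.436) with DHT against vehicle in stripped serum. With JQ-1 against vehicle it was at -6.00 (SE 0.594, adjusted p = 8.90e-12). None of the 8 reached the count filter between enzalutamide with JQ-1 and JQ-1. ADRA2A therefore probably passed that filter against vehicle only through the vehicle group, where it was high, which favoured a fall. With enzalutamide ADRA2A was at 0.31 (SE 0.229, adjusted p = 0.495). In full serum ADRA2A rose with enzalutamide in V16D (0.47, SE 0.134, adjusted p = 0.00212) and in MR49F (0.93, SE 0.121, adjusted p = 9.20e-04). ADRB1, a stimulatory beta receptor, was 1 of the 2 that fell in V16D (-0.54, SE 0.166, adjusted p = 0.00485). Of 7 other opioid receptors and peptides listed, 0 passed the count filter in stripped serum.

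Among 24 genes of inhibitory G protein and cyclic AMP signalling, 1 of 19 tested passed with enzalutamide in stripped serum, beside 7.26% of all genes, ADCY3, an adenylyl cyclase (log2 fold change 0.40, SE 0.121, adjusted p = 0.0483). In V16D 7 of 21 rose and 3 fell, beside 37.5% of all genes called, and in MR49F in full serum 4 of 22 rose and 1 fell, beside 8.48%. ADCY7, another adenylyl cyclase, rose in V16D (0.46, SE 0.0923, adjusted p = 5.65e-06) and in MR49F (0.44, SE 0.0828, adjusted p = 0.00822). Among 23 other enzymes that make or use phosphatidic acid, 0 of 14 tested passed with enzalutamide in stripped serum by edgeR, where 6 had an unadjusted p under 0.05. In V16D 4 of 16 rose and 2 fell, a share equal to the 37.5% of all genes called. DGKH, a diacylglycerol kinase, rose in V16D (0.72, SE 0.0874, adjusted p = 1.20e-14) and in MR49F in full serum (0.60, SE 0.114, adjusted p = 0.00864). PLD2, the other classical phospholipase D, was at 0.04 (SE 0.0755, adjusted p = 0.700) in V16D and -0.43 (SE 0.198, adjusted p = 0.236) with enzalutamide in stripped serum.

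MATN2, a matrix protein with von Willebrand factor A domains as in VWA2, moved in the same directions as the 4 genes with DHT and with enzalutamide. It was at -3.41 (SE 0.213) with DHT and -1.13 (SE 0.145, adjusted p = 4.19e-05) with enzalutamide in stripped serum, and at 2.35 (SE 0.121, adjusted p = 3.07e-67) in V16D and 1.26 (SE 0.201, adjusted p = 0.00322) in MR49F in full serum. It was 1 of 3 such genes tested, of 8 listed. It was the 1 called with enzalutamide in stripped serum, beside 7.26% of all genes, and in MR49F in full serum, beside 8.48%. In V16D 1 of the 3 rose and 1 fell, beside 37.5%. Of 10 genes known as androgen-repressed, 3 were tested with enzalutamide in stripped serum and all 3 fell, beside 7.26% of all genes called. Among them were ACKR3, a chemokine receptor (-0.87, SE 0.215, adjusted p = 0.0166), and FOLH1, the prostate-specific membrane antigen (-0.27, SE 0.0806, adjusted p = 0.0470). In V16D 5 of 7 rose, beside 37.5% of all genes called in either direction, with ACKR3 at 1.03 (SE 0.0408, adjusted p = 9.98e-102), and in MR49F in full serum 1 of 7 rose, beside 8.48%, FOLH1 (0.32, SE 0.0394, adjusted p = 6.32e-04). The classical androgen-induced genes KLK2, KLK3, TMPRSS2 and FKBP5 went the other way, each higher with enzalutamide in stripped serum and lower in V16D.

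The FPKM values split PLD1 between 2 transcripts. In stripped serum with vehicle they were at 4.18 ± 0.145 and 3.29 ± 0.761 FPKM, and with enzalutamide at 1.87 ± 0.186 and 1.14 ± 0.0397 (SD, n = 3). Both were lower with enzalutamide in every library. With DHT they were at 0.181 ± 0.157 and 0.0814 ± 0.140 FPKM, where the split between transcripts varied as much as the level. The other 3 genes had 1 transcript each.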

How the data were processed

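RNA was taken from 30 cultures of V16D and MR49F cells, with wells pooled for each replicate. According to the submitters' processing notes and the study's methods, the authors mapped reads to hg19 with TopHat2 2.0.9. They deposited raw counts per gene (HTSeq) and, separately, FPKM values per transcript (Cufflinks 2.1.1). Transcript values of a gene were added up. Opposite-strand gene pairs were compared after the data were seen, with the GENCODE annotation on GRCh37. In stripped serum the counts held 982130 to 1813262 reads on genes, so values near 0 carry wide counting error.

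Counts were tested with edgeR 4.0.16 in R 4.3.3 (quasi-likelihood test, TMM scaling, filterByExpr at its defaults), with Benjamini-Hochberg adjustment over all genes tested. CPM values use TMM-scaled library sizes. The shares of all genes called are from the edgeR fits and are no background for calls by limma or for a lack of overlap between libraries. The share of all genes without overlap is not given for any comparison, so how far such separation stands out is open. Alternatives were DESeq2 1.42.0, its size factors, no filter, 1 fit per serum, the replicate number as a block, limma 3.58.1 on log2(FPKM + 1) and log2(FPKM + 0.1) with and without a filter of 1 FPKM in 3 libraries, an equal-variance two-group test, and each library left out. The fitting code was tested on simulated counts. Exact intervals are 95% Clopper-Pearson intervals on summed reads and cover counting error only. Replicates were described as biological, and p-values measure the spread between these cultures.

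The members and gene lists were chosen with earlier results of these data known. Besides the members, the naming rule took the 3 genes most alike by correlation in stripped serum, the lowest genes with DHT that averaged at least 5 CPM with vehicle and, from each list, up to 4 genes past the threshold with the largest change in a comparison. PLD2 falls outside this rule and was named after its values were seen. Results for some genes are not reported here.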

Additional observations from a re-analysis of the deposited data

Results flagged for a closer look

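The effect of enzalutamide differed between settings for the 4 genes by tests of the difference itself. Between the cell lines in full serum, the difference in log2 fold change was -1.20 for VWA2, -1.19 for OPRK1 and -0.79 for ADRA2C, with lower fold changes in MR49F than in V16D. ADRA2C (0.18, adjusted p = 0.454, edgeR) and VWA2 did not pass on their own in MR49F in full serum. The ADRA2C difference missed the threshold in 3 of the 12 fits that left out 1 library (adjusted p 0.0504 to 0.0721) and with DESeq2 (adjusted p = 0.0605). Between the sera in MR49F cells, it was 3.16 for PLD1, 1.71 for VWA2 and 1.29 for OPRK1, with a fall in stripped serum and a positive fold change in full serum for each. What sets these differences was not tested.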

How the results depend on the processing

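Over the alternatives, 819 log2 fold changes of the 4 genes were recomputed. No value past the threshold turned its sign, and 6 values turned sign that were past it neither in the reported fit nor in the alternative, while 30 called values lost the threshold and 25 gained it. The counts of the 4 genes past the threshold that moved by more than 1.5 times were as follows. With enzalutamide against vehicle in stripped serum, the two-group test gave 0 and leaving out vehicle replicate 1 gave 1. With enzalutamide and JQ-1 against JQ-1, the two-group test gave 0, and DESeq2 gave no adjusted p. With DHT and JQ-1 against JQ-1, DESeq2 gave 1, the two-group test 1 and limma without a filter 4. With enzalutamide and JQ-1 against enzalutamide, DESeq2 gave 1 and the two-group test 1. Leaving out enzalutamide replicate 1, or replicate 2 of enzalutamide with JQ-1, also gave 1. With DHT and JQ-1 against DHT, no filter gave 1, the fit of all groups 1, the two-group test 1 and limma without a filter 3. With DHT and JQ-1 against enzalutamide and JQ-1, no filter gave 2, the fit of all groups 2, limma on either pseudocount 3, limma without a filter 4 and the two-group test 0. With enzalutamide in MR49F in full serum, limma on either pseudocount gave 1, since its filter removed PLD1 and VWA2, and the two-group test gave 1, since it did not call OPRK1. For the interaction of JQ-1 and enzalutamide, limma gave 3 under each of its settings. Other causes were not tested.

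Same-numbered replicates did not deviate together in all pairs of any comparison (correlations from -0.158 to 0.171), and the reported fits were not paired. For enzalutamide against vehicle in stripped serum the correlations were 0.0812, -0.0173 and 0.171 for replicates 1, 2 and 3. Whether same-numbered replicates were handled together is not known from these values and was not tested. With the replicate block, 3 of the 4 genes passed with enzalutamide against vehicle in stripped serum, as without it, and calls over all genes went from 808 to 1323. The block changed no call of the 4 genes. In stripped serum, reads of 0 to 6 per library with DHT limit how far falls can be ranked.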
